A study of Mus musculus with 6 samples.

Results

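Complement genes are described here: the components C1qa, C1qb, C3, Cfb and Cfp and the receptors C3ar1 and C5ar1, 7 genes chosen by their symbols. Every probe set of the deposited table that the annotation used here gives to 1 of these symbols was taken, on all 6 arrays. This gave 9 probe sets for 6 of the 7 genes, out of 22690 probe sets and 12393 genes with a probe set of their own. The annotation names no probe set for C3, so C3 was not analysed here. RNA came from bone marrow-derived macrophages of C57BL/6J mice, grown in medium conditioned by L929 cells, which are fibroblasts that secrete the macrophage growth factor CSF1. The cells lacked IκBβ, an inhibitor of the transcription factor NF-κB encoded by Nfkbib, or were wild type. They had been in 1 µg/ml lipopolysaccharide (LPS), a bacterial cell wall component sensed by TLR4, for 0, 1 or 5 h. The 6 groups were knockout at 0 h, knockout at 1 h, knockout at 5 h, wild type at 0 h, wild type at 1 h and wild type at 5 h, each with 1 Affymetrix Mouse Genome 430A 2.0 array. The labels do not give the animals' sex or age, the way the allele was made, or whether arrays of a genotype came from separate animals, so the spread between arrays may be technical.

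Complement is a cascade of proteins that marks microbes and dying cells for uptake and recruits leukocytes. In the classical pathway C1q, built from the products of C1qa, C1qb and C1qc, binds antibody or a surface directly. In the alternative pathway factor B (Cfb) joins deposited C3 fragments to form a convertase that properdin (Cfp) stabilizes, and all pathways meet at C3. The small fragments C3a and C5a act through the receptors C3AR1 and C5AR1, and macrophages are a known local source of C1q and properdin outside the liver.

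Values are MAS5 signals, a linear probe set intensity, and a signal compares arrays for 1 probe set, not 1 gene with another. Array medians were 117.0, 98.7 and 65.2 in knockout and 113.4, 105.1 and 70.7 in wild type at 0, 1 and 5 h, while the means without the highest and lowest tails were 500.2 to 500.3 on every array. The table had therefore been scaled to a common trimmed mean, and the median gene kept for the tests changed by −0.57 on the log2 scale at 5 h, so changes are also given relative to that median. Nfkbib signals were 30.5, 135.8 and 56.1 in knockout against 477.4, 3329.9 and 5006.8 in wild type, lower in knockout at each time, as the labels have it, though the place of these probes relative to the deletion is not stated. Xist, made by the inactive X chromosome of female cells, was 2149.2 to 5633.8 in knockout against 52.1 to 80.4 in wild type, and the Y-linked Eif2s3y was 0.896 to 10.7 in knockout against 569.7 to 859.9 in wild type. Genotype and sex therefore cannot be told apart in these arrays. All 12 macrophage markers passed the filter on dim probe sets, with a summed signal of 93377 to 100254 in knockout and 100399 to 101819 in wild type. Other cell types had fewer markers that passed, with 4 of 10 for neutrophils, 2 of 10 for fibroblasts, 3 of 8 for B cells, 5 of 9 for dendritic cells with MHC class II, and 0 of 9 for T cells with NK cells. The list of dendritic cells with MHC class II summed to 23812.3 to 29694.5 in knockout and 23327.6 to 27821.6 in wild type. B cell markers summed to 3945.0, 2880.1 and 473.9 in knockout against 3775.4, 2664.2 and 491.2 in wild type at 0, 1 and 5 h. T and NK cell markers summed to 115.6 to 164.6 in knockout and 164.1 to 184.9 in wild type.

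After LPS, factor B was the complement gene with the large response: its signal was low at 0 and 1 h and, over both genotypes, 79.7 times higher at 5 h. C1qa, C1qb, properdin and C3ar1 were bright on every array and moved by less than 2-fold on the probe set used in the fit. C5ar1 stood at 1.67 to 1.83 times its 0 h signal at 1 h, a change that missed the threshold here and passed it in some other settings. No complement gene passed the test between knockout and wild type. Tests used limma on log2 signals with genotype and time as additive terms, so that each LPS change is the one shared by both genotypes, with an adjusted p under 0.05 as the call. With 1 array a group, this fit has 2 residual degrees of freedom, and a response that differs between the genotypes has no test.

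**Figure D1:**
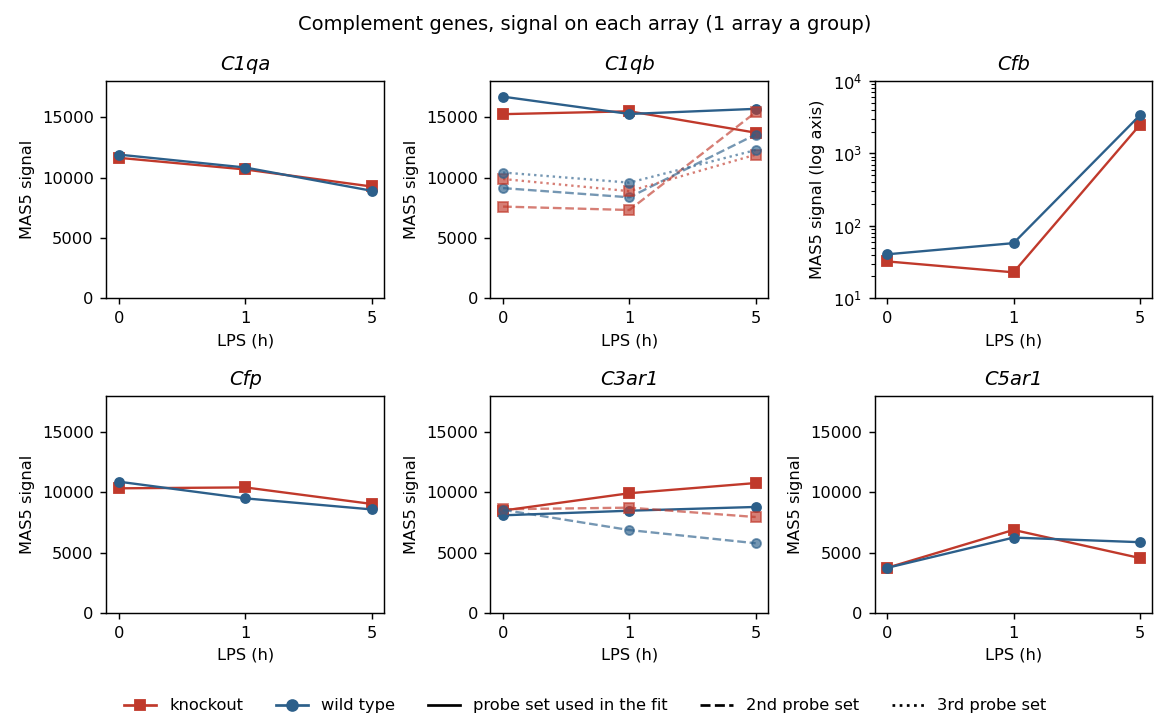
MAS5 signal (vertical axis) of each complement gene at 0, 1 and 5 h of LPS (horizontal axis), 1 point an array, with squares for knockout and circles for wild type and a dashed or dotted line for further probe sets of a gene. The Cfb panel has a log axis, on which both 5 h arrays stand at 2473.9 and 3355.3 against at most 57.7 on the others, and the C1qb and C3ar1 panels show probe sets that run in different directions.

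Counts of genes give the background for these results. At 1 h, 0 of the 6 genes passed the test in either direction, against 11.3% of the 7508 genes tested. Without adjustment, 1 of the 6 had a p under 0.05 in the limma fit at 1 h, against 2472 of the 7508 genes. At 5 h against 0 h, 1 gene was higher, against 19.5% of all genes, and 1 was lower, against 54.0% of all genes, with 4 that did not pass. At 5 h against 1 h, 1 gene was higher, against 18.5% of all genes, and 0 were lower, against 45.5% of all genes. For rises, 1 of 6 is near the background, and with 6 genes these counts are a description. The median change of the 6 genes was −0.02, 0.05 and −0.12 on the log2 scale in these contrasts, in the order given, and that of all genes was −0.18, −0.57 and −0.38. These contrasts share arrays and are given side by side. The split of calls over all genes depended on the scaling: 26.5% of the calls at 5 h were rises at the deposited scale, 39.3% after quantile normalization and 59.1% after each array was centred on the common median. At 5 h against 1 h these shares were 29.0%, 42.0% and 60.3%, and at 1 h they were 47.8%, 56.1% and 66.6%.

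C1q subunit genes had high signals on all 6 arrays, and whether changes are compressed so near the top of the signal range was not tested. C1qa encodes the A chain of C1q and lies on chromosome 4 beside C1qc and C1qb, in the order C1qb, C1qc, C1qa, between Ephb2 and Epha8. The C1qa probe set 1417381_at gave 11636.5, 10671.4 and 9260.7 in knockout at 0, 1 and 5 h, against 11902.4, 10834.5 and 8907.7 in wild type. In both genotypes the 0 h array was the highest and the 5 h array the lowest, and the 5 h signals did not overlap with those at 0 and 1 h. The change at 5 h against 0 h was −0.37 on the log2 scale (SE 0.10, 95% interval −0.65 to −0.10, limma adjusted p = 0.0292), a fall to 0.772 times the 0 h level at the deposited scale that turned to 0.39 (adjusted p = 0.0557) with each array centred on its median. Leaving out any 1 of the 6 arrays lost the call, with adjusted p from 0.0520 to 0.197 and values from −0.42 to −0.33. After quantile normalization the 5 h change was −0.51 (adjusted p = 0.0117). Relative to the median of all genes, C1qa was 0.19 higher at 5 h at the deposited scale. At 1 h its change was −0.13 (adjusted p = 0.414).

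C1qb, the B chain, has 3 probe sets, and they did not run the same way. On the brightest, 1417063_at, the signals were 15254.7, 15493.0 and 13719.7 in knockout against 16703.0, 15270.5 and 15695.5 in wild type. These 6 values lie close together, and the 5 h change was −0.12 (SE 0.11, 95% interval −0.43 to 0.19, adjusted p = 0.378). On 1434366_x_at the signals were 7595.4, 7312.2 and 15413.0 in knockout against 9126.3, 8364.9 and 13567.5 in wild type. Both 5 h arrays stood above the other 4, with a 5 h change of 0.80 (SE 0.16, adjusted p = 0.0114 when every probe set was fitted on its own). The signals of 1437726_x_at were 9881.9, 8873.2 and 11898.4 in knockout against 10420.2, 9580.5 and 12281.4 in wild type, again with both 5 h arrays highest. Its 5 h change of 0.25 missed the threshold (adjusted p = 0.0979), while 5 h against 1 h gave 0.39 (adjusted p = 0.0353). Affymetrix uses the ending _x_at for probe sets that hold probes shared with other sequences, and whether that bears on the disagreement was not tested. A direction for C1qb therefore depends on the probe set, and its mean over the 3 probe sets gave 0.31 (adjusted p = 0.0525) at 5 h. It depends on the scaling too: with each array centred on its median, 1417063_at gave 0.64 (adjusted p = 0.0119).

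C1qc, the third chain and a neighbour rather than a chosen gene, had signals of 14226.1, 13897.6 and 13885.1 in knockout against 16844.3, 15013.1 and 15002.1 in wild type. Its knockout signal was below the wild type signal at each time, with a difference of −0.16 over the 3 times that did not pass the test (SE 0.09, adjusted p = 0.633). The 5 h change was −0.10 (adjusted p = 0.430). The start regions of C1qb and C1qc are shown because both genes kept high signals on all arrays and PU.1, the product of Spi1, is the known master regulator of the macrophage lineage. They come from RefSeq on GRCm38.p6 and run from 250 bases before to 50 bases after the start of the gene, on the minus strand, at chr4:136886151-136886450 for C1qb and chr4:136892865-136893164 for C1qc. Capitals mark matches to the PU.1 core GAGGAA on either strand.
C1qb: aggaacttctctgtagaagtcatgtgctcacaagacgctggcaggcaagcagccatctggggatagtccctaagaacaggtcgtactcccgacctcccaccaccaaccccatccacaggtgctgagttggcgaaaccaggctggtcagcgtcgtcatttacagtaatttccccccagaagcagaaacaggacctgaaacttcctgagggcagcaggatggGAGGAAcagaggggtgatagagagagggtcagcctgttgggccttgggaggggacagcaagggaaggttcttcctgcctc
C1qc: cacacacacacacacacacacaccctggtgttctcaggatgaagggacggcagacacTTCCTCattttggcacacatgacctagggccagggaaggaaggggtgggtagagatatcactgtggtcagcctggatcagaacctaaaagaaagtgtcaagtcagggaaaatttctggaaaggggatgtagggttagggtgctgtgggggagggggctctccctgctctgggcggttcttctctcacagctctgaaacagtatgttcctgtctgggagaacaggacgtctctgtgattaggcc
The C1qb match begins 30 bases before the start and the C1qc match, on the other strand, 193 bases before it. The core is found in 28.3% of the 32851 promoters in the table, so these matches are a description and not sites. The same windows hold the NF-κB pattern (GGG, any 5 bases, CC), which 50.8% of all promoters hold, 2 times each as overlapping matches, and neither holds the interferon response pattern (GAAA, any 2 bases, GAAA), which 3.44% of promoters hold.

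Factor B provides the protease subunit of the alternative pathway convertase. Cfb lies on chromosome 17 between Nelfe and C2, the gene of its classical pathway counterpart. The Cfb probe set 1417314_at gave 32.3, 22.8 and 2473.9 in knockout at 0, 1 and 5 h against 40.5, 57.7 and 3355.3 in wild type. Both 5 h arrays lie far above all others, and the other 4 lie between the 28th and the 42nd percentile of their arrays' probe sets, above the floor of 18.2 but in the dim range. The change at 5 h against 0 h was 6.32 on the log2 scale (SE 0.29, 95% interval 5.53 to 7.11, adjusted p = 0.000378), which is 79.7-fold. It was the 25th largest rise among the 7508 genes, and 6.89 above their median. Between 1 h and 5 h it was 6.31 (SE 0.29, adjusted p = 0.000699), the 8th largest. Cfb passed the filter only through its 5 h arrays, so these ranks are among genes that can be kept for high 5 h signals alone. Within the genotypes, the 5 h signal was 76.7 times the 0 h signal in knockout and 82.9 times it in wild type. At 1 h no rise shared by the genotypes was found, with a change of 0.01 (SE 0.29, adjusted p = 0.991), −0.50 in knockout and 0.51 in wild type. The rise at 5 h kept its direction and its call under all 14 alternatives, from 5.85 to 7.08. C2, next to Cfb, had signals of 7.3, 6.3 and 7.9 in knockout against 5.8, 7.5 and 25.9 in wild type, 1 of them above the floor, and did not pass the filter. Fibroblasts also make factor B. The summed signal of 10 fibroblast markers was 213.3, 228.4 and 303.0 in knockout against 291.2, 318.9 and 440.2 in wild type, most of it from markers that did not pass the filter. The 2 that passed both rose at 5 h, Dcn by 1.68 on the log2 scale (adjusted p = 0.0427) and Pdgfrb by 1.92 (adjusted p = 0.020), from signals under the floor on some arrays. Each passed the filter only through 1 array at 5 h, knockout for Dcn (99.1) and wild type for Pdgfrb (134.9). A high 5 h signal was therefore what kept them, and their rises are no separate evidence. The part of fibroblasts in the Cfb result was not tested.

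Properdin, the stabilizer of the alternative convertase, is encoded on the X chromosome. The Cfp probe set 1452279_at gave 10340.8, 10416.3 and 9048.8 in knockout against 10890.0, 9509.2 and 8593.4 in wild type. The 5 h array was the lowest of each genotype and lay below every array at 0 and 1 h. The 5 h change was −0.27 (SE 0.11, 95% interval −0.57 to 0.04, adjusted p = 0.0925) at the deposited scale, 0.30 above the median of all genes, and 0.50 (adjusted p = 0.0347) with each array centred on its median. It was called as a fall after quantile normalization (−0.44, adjusted p = 0.0208) and with an intensity trend in the fit (−0.27, adjusted p = 0.0112). The direction of Cfp therefore depends on the scaling. The start region of Cfp, at chrX:20931506-20931805 on the minus strand, is shown for the same reason as those of C1q, with the PU.1 core in capitals.
Cfp: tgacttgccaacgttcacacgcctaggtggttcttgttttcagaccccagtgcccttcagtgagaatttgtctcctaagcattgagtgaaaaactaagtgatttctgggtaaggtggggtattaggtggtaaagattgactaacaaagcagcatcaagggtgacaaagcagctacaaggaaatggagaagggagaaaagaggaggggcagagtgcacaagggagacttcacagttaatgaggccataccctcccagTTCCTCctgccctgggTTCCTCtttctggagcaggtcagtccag
Both matches are on the other strand, beginning 7 and 23 bases into the transcript, and the window holds 1 match to the NF-κB pattern. Start regions of C3ar1 and C5ar1, whose signals were also high on all arrays, hold no match to the PU.1 core and are not shown. The NF-κB pattern is found 1 time in that of C3ar1 and not in that of C5ar1. The start region of C3 holds 4 matches to it, of which 2 overlap. Start regions were in the table for 5 of the 7 genes.

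**Figure D2:**
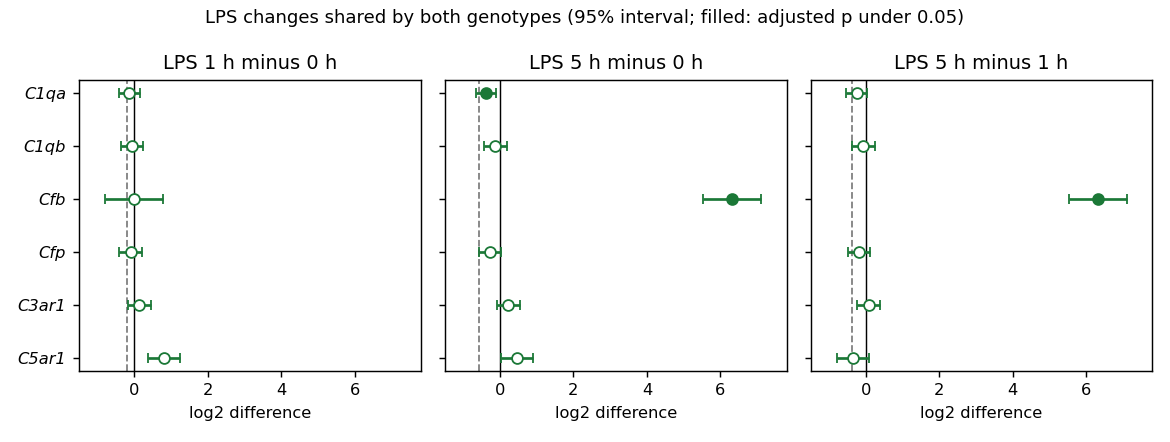
Log2 change of each complement gene between times of LPS (horizontal axis), shared by both genotypes, with points at the estimate and bars for the 95% interval, filled where the adjusted p is under 0.05. The dashed line is the median of all 7508 genes, and Cfb at 6.32 and 6.31 stands apart, while C1qa at 5 h lies at −0.37 and turns positive (0.39) after median centring.

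C3a receptor signals were high on every array. C3ar1 has 2 probe sets. On 1419482_at, used in the fit, the signals were 8499.8, 9933.6 and 10777.7 in knockout against 8103.1, 8486.2 and 8797.1 in wild type. The order was 0, 1 and 5 h from low to high in both genotypes, and the knockout array was higher at each time. The 5 h change was 0.23 (SE 0.11, 95% interval −0.08 to 0.54, adjusted p = 0.135). On 1419483_at the signals were 8607.4, 8738.7 and 7962.6 in knockout against 8560.1, 6882.0 and 5790.2 in wild type, with the 5 h array lowest in both. Its 5 h change was −0.34 (SE 0.16, adjusted p = 0.117), so the direction over time differed between the probe sets and neither passed the test. After median centring the 5 h change on 1419482_at was 0.99 (adjusted p = 0.00328), and after quantile normalization 0.03 (adjusted p = 0.804). The sign of knockout minus wild type was the same on both probe sets at all 3 times, with 0.07, 0.23 and 0.29 at 0, 1 and 5 h on 1419482_at and 0.01, 0.34 and 0.46 on 1419483_at. Over the 3 times the difference was 0.20 (SE 0.09, 95% interval −0.06 to 0.45, adjusted p = 0.607) on 1419482_at and 0.27 (adjusted p = 0.620) on 1419483_at.

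C5a receptor 1, through which C5a draws in and activates phagocytes, was the gene with the largest change at 1 h among the 6. The C5ar1 probe set 1422190_at gave 3757.9, 6895.3 and 4564.3 in knockout against 3751.9, 6259.6 and 5877.7 in wild type. The 2 arrays at 0 h were the lowest and nearly equal, those at 1 h the highest, and those at 5 h lay between and did not overlap with either. The 1 h change was 0.81 (SE 0.16, 95% interval 0.37 to 1.25, adjusted p = 0.0542, higher at 1 h in 2 of 2 genotypes), which narrowly missed the threshold. At 5 h it was 0.46 (SE 0.16, adjusted p = 0.0576), and between 1 and 5 h −0.34 (SE 0.16, adjusted p = 0.131). The 5 h change was 1.23 (adjusted p = 0.00192) after median centring and 0.19 (adjusted p = 0.358) after quantile normalization. The 1 h change was called with a floor of 50 (adjusted p = 0.0349), median centring (0.99, adjusted p = 0.0232) and an intensity trend (adjusted p = 0.00511). It missed with the other floor (adjusted p = 0.0632), quantile normalization (0.73, adjusted p = 0.0685), no filter (adjusted p = 0.136) and the other uses of probe sets (adjusted p = 0.0506 and 0.0593). Within the genotypes the signal was 1.83 times the 0 h signal at 1 h in knockout and 1.67 times it in wild type. At 5 h these folds were 1.21 in knockout and 1.57 in wild type. Without the knockout 5 h array the 5 h change was 0.68 (adjusted p = 0.0232), and without the wild type 5 h array it was 0.25 (adjusted p = 0.170). The 1 h change passed the test without either of these arrays (adjusted p = 0.0454), and missed it without any of the other 4, with adjusted p from 0.160 to 0.264 and values from 0.65 to 0.97. The change at 5 h against 1 h was −0.56 (adjusted p = 0.0392) without the wild type 5 h array. Neutrophils also carry C5AR1. The summed signal of 10 neutrophil markers was 3323.7, 3045.8 and 2879.8 in knockout against 2695.4, 2581.3 and 1986.7 in wild type, most of it from Mmp8 and Mmp9. S100a8 signals were 81.7, 91.6 and 1135.4 in knockout against 88.2, 104.0 and 500.0 in wild type, with a rise of 3.15 at 5 h (adjusted p = 0.00281). It passed the filter only through its 5 h arrays. Mmp8 changed by −1.47 in the same contrast (adjusted p = 0.00067). The other 2 that were kept, Mmp9 at −0.22 and Camp at 1.17, did not pass the test. The part of neutrophils in the C5ar1 values was not tested.

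Genotype had no called effect on complement genes. Over the 3 times, 0 of the 6 genes passed the test, against 0.0133% of all genes, which is 1 gene, the Y-linked Eif2s3y. Without adjustment, Cfb had a p of 0.0388 in the limma fit and the other 5 had none under 0.05, which 629 of all genes had. Its difference was −0.70 (SE 0.24, 95% interval −1.35 to −0.06, adjusted p = 0.588), and the knockout signal was lower at 3 of 3 times. It was −0.22 with a floor of 50 and −0.38 without either 1 h array, so much of its size rests on the dim 1 h pair. The other differences over the 3 times were −0.10 for C1qb (95% interval −0.35 to 0.15), −0.07 for C5ar1 (−0.43 to 0.29), 0.00 for C1qa (−0.23 to 0.23) and 0.04 for Cfp (−0.21 to 0.29). These intervals still allow differences of up to about 0.4 on the log2 scale.

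At single times the genotypes can only be compared as values. Cfb differed by −0.33, −1.34 and −0.44 on the log2 scale at 0, 1 and 5 h. It was the only 1 of the 6 that was at least 2-fold apart, at 1 h, against 2.98% of all genes at that time. At 0 h 0 of 6 were that far apart, against 2.04% of all genes, and at 5 h 0 of 6, against 4.85%. The 1 h difference of Cfb lies between 2 dim signals: of 695 genes below the median on both 1 h arrays, 14.4% were at least 2-fold apart, and with a floor of 50 the difference was −0.21. C5ar1 differed by 0.00 at 0 h, 0.14 at 1 h and −0.36 at 5 h, and 29.5% of all genes differed by as much at 5 h. At 1 h of LPS, 0 of the 6 changed at least 2-fold in knockout, against 10.3% of all genes, and 0 in wild type, against 9.87%. At 5 h only Cfb did on the probe sets used in the fit, in knockout against 49.6% of all genes and in wild type against 46.4%. The C1qb probe set 1434366_x_at, not used in the fit, was 2.03 times its 0 h signal at 5 h in knockout and 1.49 times it in wild type. As bulk RNA was measured, fewer cells with a transcript and less of it in each cell cannot be told apart.

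**Figure D3:**
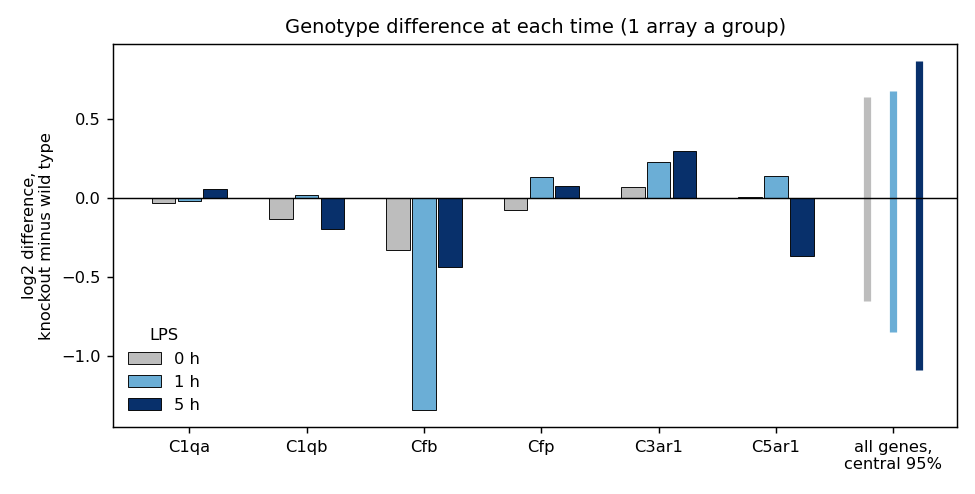
Log2 difference, knockout minus wild type, of each complement gene at 0, 1 and 5 h of LPS, 1 array a group, with the central 95% of all 7508 genes at the right. Cfb at 1 h (−1.34) is the bar that lies outside that span, and both of its signals are dim.

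Other genes of the pathway give the setting. Lists of 55 further complement genes, chosen with earlier results of these data known, had 40 with a probe set and 14 that passed the filter. At 1 h, 0 of the 14 passed the test in either direction, against 11.3% of all genes. At 5 h the test was passed by 1 gene that rose, against 19.5% of all genes, and by 7 that fell, and missed by 6. Their median change was −0.47 against −0.57 for all genes. The contrast of 5 h against 1 h gave the same counts, where 18.5% of all genes rose and 45.5% fell. Since 54.0% of all genes were called lower at 5 h, a count of 7 of 14 is near the background.

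Initiators of the classical and lectin pathways had 4 genes kept of 10 measured. C1ra, a protease that C1q activates, rose by 0.87 on the log2 scale (SE 0.16, adjusted p = 0.00945). Its signals were 181.9, 182.8 and 397.7 in knockout against 188.5, 145.4 and 289.5 in wild type, with both 5 h arrays above the other 4. Without the knockout 0 h array the calls of C1ra, Fcna and Itgam were lost, with changes of 0.65 for C1ra, −0.60 for Fcna and −0.42 for Itgam and adjusted p of 0.0545, 0.0652 and 0.140. That of Itgam was also lost without the wild type 0 h array (−0.46, adjusted p = 0.112). Ficolin A (Fcna), a lectin pathway recognition molecule, fell by 0.66 (adjusted p = 0.00646). Its signals were 548.2, 495.9 and 327.9 in knockout and 610.4, 569.0 and 410.8 in wild type. It lost the call after quantile normalization (−0.22, adjusted p = 0.106) and stood at 0.11 after median centring (adjusted p = 0.502). Masp1, a lectin pathway protease, was at 0.14 and did not pass, nor did C1qc. None of the 6 measured genes of the alternative and terminal pathway, among them Hc, which encodes C5, passed the filter, with summed signals of 45.3 to 87.9 in knockout and 57.0 to 104.5 in wild type.

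Among other complement receptors, 5 of 7 fell at 5 h, against 54.0% of all genes. In the same contrast all 3 B cell markers that passed the filter fell, with changes of −3.60 for Ighm, −2.06 for Cd79b and −1.18 for Cd22. So did 4 of 12 macrophage markers, among them Cx3cr1 at −2.16, Mrc1 at −1.74 and Itgam, which is also 1 of these receptors. Another 3 macrophage markers rose, Marco by 2.46, Spi1 by 1.12 and Cd14 by 0.80, and 5 did not pass the test. The part of such changes in the receptor values was not tested. The remaining 2 receptors did not pass, Itgax at −0.49 (adjusted p = 0.0542) and Calr at −0.04. The value of Calr depends on the probe set and on the scaling. The mean of its probe sets gave −0.35 (adjusted p = 0.0485), quantile normalization −0.33 (adjusted p = 0.0439) and median centring 0.72 (adjusted p = 0.00627). Cd93, a membrane protein once described as a C1q receptor, had signals of 5685.0, 4694.3 and 813.9 in knockout against 6447.3, 5514.3 and 1079.7 in wild type. Its 5 h change of −2.69 (SE 0.11, adjusted p = 0.00035) left both 5 h arrays far below the rest. Lrp1, an endocytic receptor that binds many ligands, changed by −2.65 (adjusted p = 0.00052), and C1qbp, a mitochondrial protein that also binds C1q, by −2.06 (adjusted p = 0.00069). Cd93, Lrp1 and C1qbp kept their calls under every alternative run. The β2 integrin subunit Itgb2, which pairs with Itgam to form complement receptor 3, changed by −0.72 (adjusted p = 0.00496), and Itgam changed by −0.44 (adjusted p = 0.0173). After median centring these values were 0.04 and 0.32, so their direction rests on the scaling. Of the regulators, Cd59a, a membrane inhibitor of the terminal complex, fell by 1.07 (adjusted p = 0.00835). It lost the call after quantile normalization (−0.34, adjusted p = 0.218) and after median centring (−0.31, adjusted p = 0.268). Cr1l at −0.06 and Clu at −0.14 did not pass, and Clu gave 1.13 (adjusted p = 0.0424) without the knockout 5 h array and −1.41 (adjusted p = 0.0264) without the wild type 5 h array. Of the 15 regulators measured, 12 were too dim to pass the filter.

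**Figure D4:**
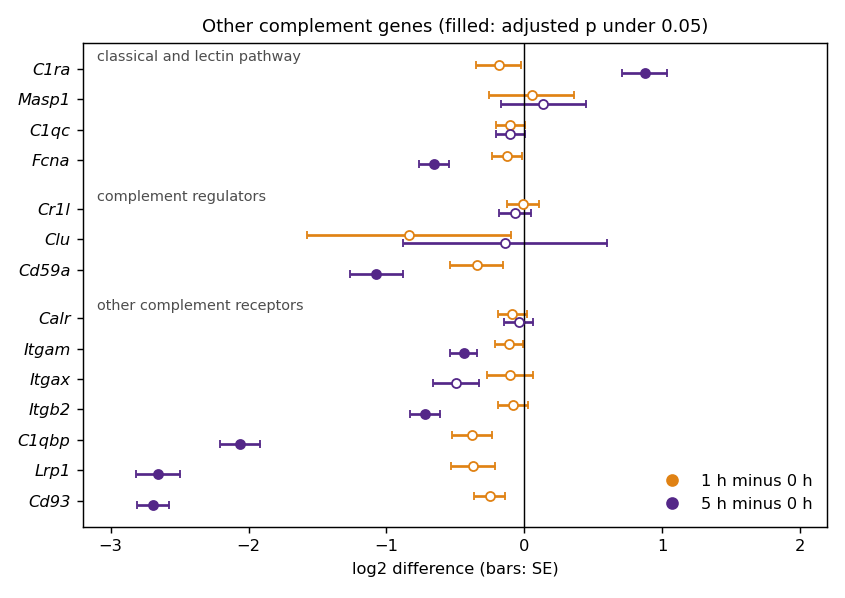
Log2 change at 1 h and 5 h of LPS against 0 h (horizontal axis, bars for the SE) of the 14 further complement genes that passed the filter, by list, filled where the adjusted p is under 0.05. Cd93, Lrp1 and C1qbp lie near −2 or below at 5 h, C1ra at 0.87, and no point at 1 h is filled, while Fcna, Itgb2 and Itgam turn positive after median centring.

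Genes with the most similar course over the 6 arrays were found by the root-mean-square difference of log2 signals, each gene centred on its own mean, among 7065 genes with all signals above the floor. Nearest to C1qa were Unc93b1 at 0.0243, Atp6v0e at 0.0246 and Fermt3 at 0.0263, where the median over all genes was 0.418. For C1qb they were Ctsl at 0.0203, Lgals3 at 0.0249 and Ctsb at 0.0263, and for Cfp they were Mpeg1 at 0.0308, Numb at 0.0399 and Tmem165 at 0.0409. Those of C3ar1 were Evi2a at 0.0575, Mapre1 at 0.0675 and Sash1 at 0.0694. C5ar1, highest at 1 h at the deposited scale, was followed by Socs4 at 0.0726, Chd4 at 0.0767 and Ero1a at 0.101. Cfb had more distant neighbours, Cnn3 at 0.499, Iigp1 at 0.566 and Slco3a1 at 0.612, against a median of 3.23. Of these, Iigp1, an interferon-inducible GTPase, had signals of 292.0, 239.7 and 13252.5 in knockout against 187.7, 252.6 and 11968.0 in wild type. Like Cfb, it was far lower on all arrays at 0 and 1 h than on both at 5 h. Its signals at 0 and 1 h were above the array medians, however, where those of Cfb were below. Cnn3, the nearest, had signals of 49.1, 32.9 and 2921.1 in knockout against 32.0, 45.9 and 1992.2 in wild type. Likeness over 6 arrays that share 3 times and 2 genotypes is a description only.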

How the data were processed

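Total RNA from 6 macrophage cultures was measured on 6 arrays. The values are intensity as the authors deposited it: MAS5 signals on a linear scale, per the submitters' processing notes. For MAS5, no version or scaling target, and for the annotation no genome build, is stated (not given in the sources used here). Probe sets were named from the platform annotation (20380 with 1 symbol, 691 with several, 64 controls, 1555 with no gene given), and no symbol changed through RefSeq's table.

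Signals under 18.2, the 25th percentile, were raised to it before log2. Probe sets that never passed the median of an array were dropped, and the brightest by mean stood for each gene (7508 genes). limma 3.58.1 (R 4.3.3; lmFit, contrasts.fit, eBayes) was fitted with genotype and time as additive terms, with Benjamini-Hochberg adjustment over all genes kept, and was tested on simulated data. Without replicates, single-array comparisons are values, counted past 2-fold. The number of arrays limits the precision. Alternatives were 2 other floors, quantile normalization, median centring, no filter, other uses of probe sets, an intensity trend and leaving out each array.

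The members and lists were chosen with earlier results of these data known. Named were all members, further complement genes that passed the test (at most 6 rises and 6 falls at 5 h, with Itgam as the partner of Itgb2 and genes of small counts named besides), the 3 nearest genes of each member, and genes that check the labels.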

Additional observations from a re-analysis of the deposited data

Results flagged for a closer look

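At 1 h of LPS, 3 genes moved in opposite directions in the genotypes, with 1 array a group, so the differences were not tested. Cfb changed by −0.50 in knockout and 0.51 in wild type on the log2 scale, between dim signals. C1qb changed by 0.022 in knockout and −0.13 in wild type, and Cfp by 0.010 in knockout and −0.20 in wild type. For C1qb and Cfp, 54.5% and 43.3% of all genes had a difference of LPS changes as large, and for Cfb 4.05% had.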

How the results depend on the processing

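The rise of Cfb at 5 h kept its call in all 14 alternatives, and no complement gene was called between genotypes in any. With 1 array a group, precision rests on 6 arrays. The causes of the changes below were not tested, except that leaving out an array leaves 1 residual degree of freedom. With median centring, 1 h values turned to 0.048 (C1qa), 0.12 (C1qb) and 0.086 (Cfp), 5 h values to 0.39 (C1qa), 0.64 (C1qb) and 0.50 (Cfp), and 5 h against 1 h to 0.34 (C1qa), 0.52 (C1qb), 0.41 (Cfp) and 0.24 (C5ar1). With median centring 1 of the 6 genes was called higher at 1 h, 5 higher and 0 lower at 5 h, and 3 higher at 5 h against 1 h. Of all 7508 genes, that setting called 539 higher at 1 h and 2939 higher and 2031 lower at 5 h. At 5 h against 1 h it called 2746 higher and 1811 lower. In that setting 5 other complement genes were higher and 3 lower at 5 h, and 4 and 3 at 5 h against 1 h, while 1 of the 6 genes changed at least 2-fold in knockout at 1 h, and 3 in knockout and 2 in wild type at 5 h. The mean of a gene's probe sets gave C3ar1 −0.0004 at 1 h, −0.054 at 5 h and −0.053 at 5 h against 1 h, gave C1qb 0.31 at 5 h and 0.40 at 5 h against 1 h, and called 2 genes higher at 5 h against 1 h. Of all genes, 1419 were called higher in that contrast. Quantile normalization gave C3ar1 −0.050 at 5 h against 1 h and called 2 genes lower at 5 h and 2 at 5 h against 1 h. Of all genes, it called 3053 lower at 5 h and 2568 at 5 h against 1 h. With an intensity trend 1 gene was called higher at 1 h, 3 higher and 2 lower at 5 h, and 2 lower at 5 h against 1 h. Of all genes, the trend called 599 higher at 1 h, 1538 higher and 4175 lower at 5 h, and 3580 lower at 5 h against 1 h. With a floor of 50, 1 gene was called higher at 1 h and 2 were higher at 5 h, and 0 were 2-fold apart between genotypes at 1 h. Of all genes, 475 were called higher at 1 h and 1488 at 5 h with that floor. Without the filter 1 gene was called lower at 5 h against 1 h, against 2877 of all 12393 genes. Leaving out 1 array at a time gave 0 to 1 genes called higher at 1 h, 1 to 2 higher and 0 lower at 5 h in each case, and 0 to 1 lower at 5 h against 1 h. Other complement genes called higher numbered 0 to 3 at 5 h and 0 to 3 at 5 h against 1 h, and those lower 3 to 6 in that last contrast. At 1 h Cfb ran from −0.47 to 0.48 and C1qb from −0.15 to 0.038, and C1qb ran from −0.16 to 0.024 at 5 h against 1 h. Between genotypes Cfb ran from −0.89 to −0.38, C1qa ran from −0.027 to 0.017, Cfp from −0.0001 to 0.10 and C5ar1 from −0.18 to 0.071. Over all alternatives, genes called higher and lower numbered 99 to 645 and 13 to 919 at 1 h (407 and 444 as reported), 1116 to 2939 and 2031 to 6048 at 5 h (1463 and 4055), 876 to 2746 and 1811 to 5093 at 5 h against 1 h (1392 and 3414), and 0 to 4 and 0 to 5 between genotypes (0 and 1).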
